A study of Mus musculus with 6 samples.

Results

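Natural killer (NK) cells were examined among the CD45+ DAPI− leukocytes sorted from the soleus muscle of male C57BL/6 mice. The cells were chosen by their detected transcripts: a barcode was taken as an NK cell when it held a UMI (a unique molecular identifier, 1 captured transcript) of at least 2 of Ncr1, Klrb1c, Klre1, Klra8, Klra4, Eomes and Prf1, and no UMI of Cd3e, Cd3d, Cd3g, Cd79a, C1qa or Csf1r. This rule found 266 NK cells among the 12520 barcodes kept, of 15467 in all. A barcode was kept with at least 200 genes and at most 10% mitochondrial UMIs. There were 6 groups with 1 library each: young mice (4 to 5 months) and old mice (20 to 22 months), as ambulatory controls, after hindlimb unloading (HU), or at day 4 of reloading after HU (4-day reload). Solei of the mice of a group were pooled before sorting, so no library shows how mice differ from each other. Every interval below covers counting error alone.

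NK cells are innate lymphocytes that kill infected, transformed or stressed cells without a rearranged antigen receptor. They weigh signals from activating receptors, which act through small adaptor proteins such as Tyrobp (DAP12) and Fcer1g, against signals from inhibitory receptors that read MHC class I on the target. Their killing rests on granules filled with perforin and granzymes, and they also secrete interferon gamma and chemokines that draw other leukocytes. In healthy muscle they are a minor population beside macrophages and T cells.

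The 6 libraries held 1675 to 3676 barcodes and 5782054 to 22749375 UMIs. Barcodes over the mitochondrial limit made up 4.12% to 33.3% of a library. Both control libraries were sequenced on a flow cell other than the one shared by the HU and reload libraries, so treatment and sequencing run cannot be told apart. Pairs of libraries shared 5 to 41 barcode sequences. The barcodes of 5 NK cells were also present in another library, and 0 were NK cells in more than 1 library.

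The label was checked against genes that the rule did and did not use. Of the 266 cells, 238 held at least 2 of the 5 defining NK markers Ncr1, Klrb1c, Klre1, Klra8 and Eomes. These levels describe the selection and were not tested. Klre1, a lectin-like receptor of NK cells, and Prf1, the gene of perforin, were each found in 190 cells (71.4%), Eomes, a T-box transcription factor of NK cells, in 161 (60.5%), Klrb1c, which encodes the NK1.1 antigen, in 148 (55.6%), Klra8 in 141 (53.0%), Ncr1, the NKp46 receptor, in 123 (46.2%) and Klra4 in 115 (43.2%). Klra8 and Klra4 encode the activating receptors Ly49H and Ly49D, and their reads may be shared with near-identical neighbours of the Klra cluster on chromosome 6. All 7 genes were seen together in 9 cells.

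Genes outside the rule gave the same picture. Nkg7, a granule membrane protein of cytotoxic lymphocytes, had a UMI in 263 of 266 cells (98.9%), against 1 of 171 B cells of the control libraries, a population that should lack it. Gzma, which encodes the protease granzyme A, was found in 247 NK cells (92.9%) and in 1 of these 171 B cells. Median depth was 3223 and 3376 UMIs in the young and old control NK cells and 2827 and 2679 in the B cells, so depth was close. The T cell markers Cd4, Cd8a, Cd8b1, Cd5, Cd6 and Bcl11b were at 0 UMIs in all 266 cells, and Trac was found in 6. Trbc1, 1 of the constant segments of the T cell receptor beta locus, was found in 74 cells (27.8%), and 45 cells had at least 2 of the 10 T cell markers. The summed level of these T cell markers ranged from 71.3 to 577 CPM (a gene's UMIs scaled so that the cells of every library have the same total) over the libraries. Of the B cell markers Cd79b, Ms4a1 and Ighd were at 0, of the macrophage markers Adgre1 and Fcgr1 were at 0, and no cell had 2 markers of either list. Doublets were marked by simulation in 4 NK cells and were not removed.

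Values just inside and just outside the threshold were as follows. The 44 cells with exactly 2 of the 7 genes had Nkg7 in 95.5%, Gzma in 68.2% and Lyz2, a myeloid lysozyme, in 6.82%. The 66 barcodes just outside, with exactly 1 of the 7 and none of the excluded genes, had Nkg7 in 45.5%, Gzma in 18.2% and Lyz2 in 48.5%.

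NK cells were about as frequent in the young and old control libraries and scarce in every HU and reload library. In the young control library 86 of 1605 kept cells were NK cells, or 5.36% (exact binomial 95% interval 4.31 to 6.58). In the old control library 135 of 2631 were, or 5.13% (4.32 to 6.04). The difference, old minus young, was −0.23 percentage points, with an interval from −1.67 to 1.12, so a difference of this size was not detectable with these numbers of cells.

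After HU the share was 0.198% in young (3 of 1518 cells) and 0.635% in old (12 of 1890). At 4-day reload it was 0.775% in young (19 of 2451) and 0.454% in old (11 of 2425). All 4 shares lay below both control shares, by 6.91 to 11.3 times for reload and 8.08 to 27.1 times for HU within an age. Within young mice the reload share exceeded the HU share by 0.578 percentage points (interval 0.105 to 1.03), and within old mice reload minus HU was −0.181 (−0.694 to 0.267). These are shares of all sorted leukocytes, so fewer NK cells and more of other cells cannot be told apart, and the control libraries also differ from the rest in their sequencing run.

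**Figure D1:**
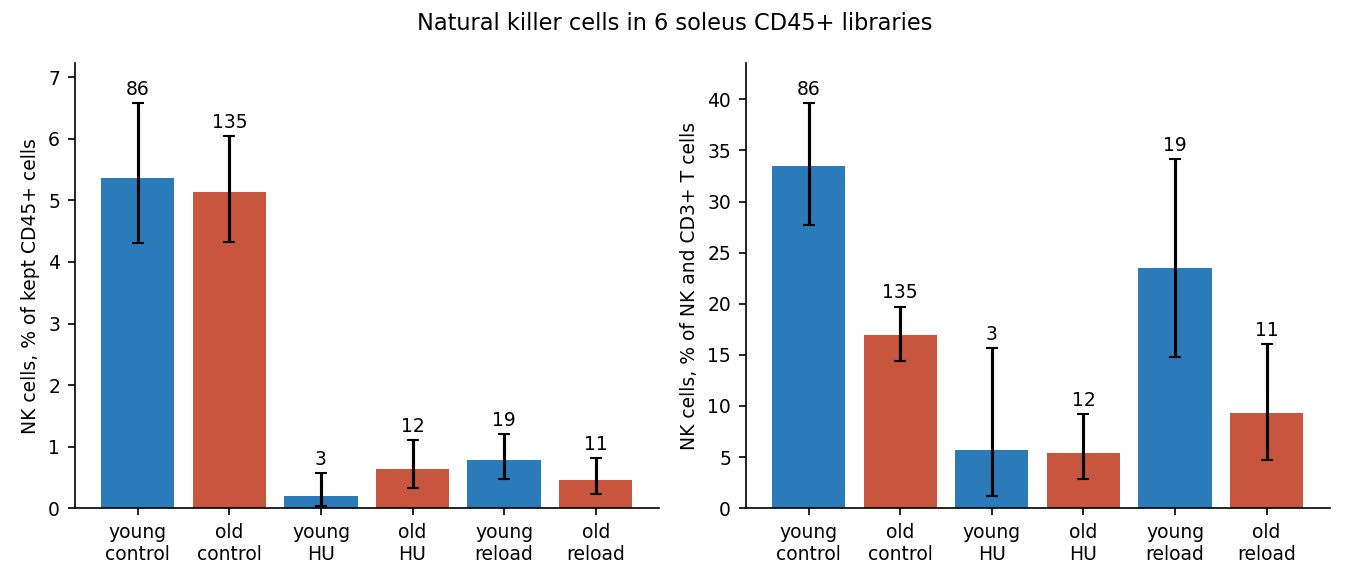
Bars show NK cells as a percent of kept CD45+ cells (left) and of NK and CD3+ T cells together (right) in each library, with exact binomial 95% intervals for counting error and the number of NK cells above each bar. Both control libraries stand at 5.36% and 5.13% on the left, while on the right young control stands at 33.5% and old control at 16.9%.

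Set against T cells, NK cells made up a larger part in the young than in the old control library. T cells were taken as barcodes with a UMI of a Cd3 gene and none of Cd79a, C1qa or Csf1r that did not meet the NK rule. NK cells were 33.5% of NK and CD3+ T cells in the young control library (86 of 257, interval 27.7 to 39.6) and 16.9% in the old control library (135 of 797, 14.4 to 19.7). At reload the share was 23.5% in young (19 of 81, 14.8 to 34.2) and 9.32% in old (11 of 118, 4.75 to 16.1), with intervals that overlapped. After HU it was 5.66% in young (1.18 to 15.7) and 5.38% in old (2.81 to 9.21). CD3+ T cells made up 10.7% of kept cells in the young control library and 25.2% in the old one, while NK cells made up 5.36% and 5.13%.

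Transcripts of the adaptors Tyrobp and Fcer1g were found in nearly every control NK cell, and those of single receptors in part of the cells. In the young and old control libraries Tyrobp was found in 98.8% and 98.5% of NK cells and Fcer1g in 100% and 99.3%. The activating receptor Klrk1 (NKG2D) was found in 60.5% and 65.9%, and Klrd1 (CD94), the partner of the NKG2 receptors, in 54.7% and 65.9%. Among inhibitory receptors, Klra9 (Ly49I) was found in 40.7% and 42.2%, Klra7 (Ly49G) in 37.2% and 31.9%, Klrc1 (NKG2A) in 31.4% and 36.3%, and Klrg1, a receptor for cadherins, in 34.9% and 47.4%. The 95% intervals of the young and old shares overlapped for each of these genes. In B cells of both control libraries, at a close depth, Tyrobp was found in 17.0%, Fcer1g in 7.02%, Klrd1 in 1.17%, Klrc1 in 0.585% and the other 4 in 0. A transcript may have been missed in cells with no UMI.

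Single cells differed in the receptor genes found together. Over all libraries 70 NK cells (26.3%) had both Klra8 and Klra4, 71 had Klra8 alone, 45 had Klra4 alone and 80 had neither. Of 8 inhibitory receptor genes counted per cell, 46 cells showed 0, 83 showed 1, 101 showed 2, 31 showed 3, 5 showed 4 and 0 showed more. Cd27 and Itgam (CD11b), whose balance marks early and late steps of NK maturation, were seen together in 11 cells, Cd27 alone in 47 and Itgam alone in 50, while 158 cells had neither.

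Granzyme transcripts were shared more evenly. Gzma and Gzmb were found together in 201 of 266 cells, Gzma alone in 46 and Gzmb alone in 4. The chemokine gene Ccl5 was found in 262 cells (98.5%), at 25737 and 30495 CPM in the young and old control libraries. It was the most abundant transcript of the cytokine list. Eomes and Tbx21 (T-bet), the paired T-box factors of the lineage, were seen together in 77 cells and were both missing in 56.

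**Figure D2:**
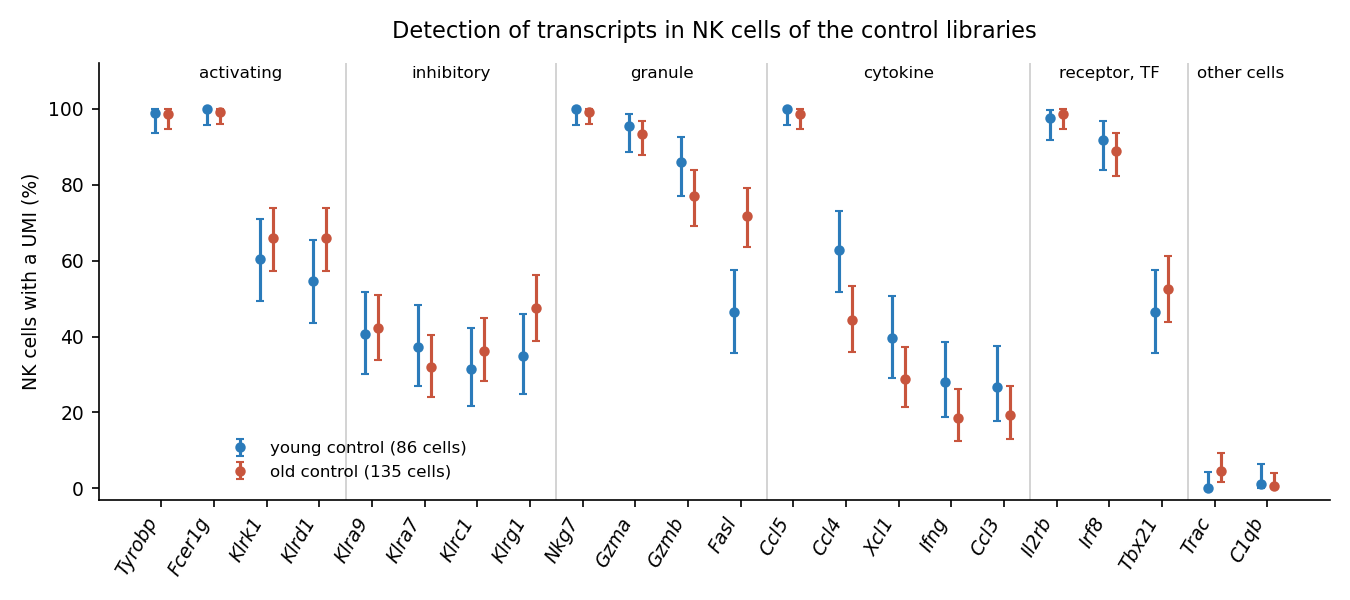
Points show the percent of NK cells with a UMI of each gene in the young and old control libraries, with exact binomial 95% intervals, in the order activating receptors, inhibitory receptors, granule and killing genes, cytokines, a cytokine receptor with 2 transcription factors, and markers of other cells. Tyrobp, Fcer1g, Nkg7, Ccl5 and Il2rb lie above 97%, the lectin-like receptors between 31.4% and 65.9%, and Fasl at 46.5% in young against 71.9% in old.

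A small set of cells within the rule carried transcripts of type 1 innate lymphoid cells (ILC1), tissue-resident relatives of NK cells that usually lack Eomes. At least 2 of Itga1, Cxcr6, Tmem176a, Tmem176b, Cd200r1 and Inpp4b were present in 14 of 266 cells. Eomes was found in 1 of these 14 and in 160 of the other 252 (63.5%), Gzma in 5 of 14 and in 242 of 252 (96.0%), and Klra8 in 1 of 14 and in 140 of 252. Tbx21 was found in 9 of 14 and 117 of 252, and Il7r, the interleukin 7 receptor, in 4 of 14 and 9 of 252. Median depth was 4350 UMIs in the 14 cells and 3195 in the others, so the 14 were not the shallower cells. The 14 were spread over 5 libraries, with 5 in young control and 6 in old control. These 14 cells were set apart after values were seen, so the shares are a description. Eomes and Klra8 are also genes of the rule, so their shares depend on which genes admitted a cell. The 3 NK cells of the young HU library all had Ncr1 and Klrb1c and all lacked Eomes, Gzma, Gzmb and Klra8, and 1 of the 3 had ILC1 markers.

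To see what sets soleus NK cells apart from the killer lymphocytes most like them, UMIs were summed per library over NK cells and over CD8 T cells of the same library. CD8 T cells had a UMI of Cd8a or Cd8b1 and of a Cd3 gene, and none of Cd4, Cd79a, C1qa or Csf1r. The young control library gave 86 NK and 57 CD8 T cells and the old control library 135 and 236, and the other libraries had fewer than 20 NK cells. By edgeR's quasi-likelihood test with library as a block, at a Benjamini-Hochberg adjusted p under 0.05, 345 of 4322 genes outside the gates were higher in NK cells (7.98%) and 428 were lower (9.9%). With 2 libraries the test had 1 residual degree of freedom, beside 55.03 prior degrees of freedom drawn from all genes. Its p-values therefore rest mostly on a spread shared over genes, and little on the spread of the single gene between libraries. Over both directions 17.9% of the genes were called. DESeq2 called 50 and 120 genes on the same sums, and 50 and 118 of these were also edgeR calls. The direction was the same in both libraries for 343 of the 345 and 417 of the 428.

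**Figure D3:**
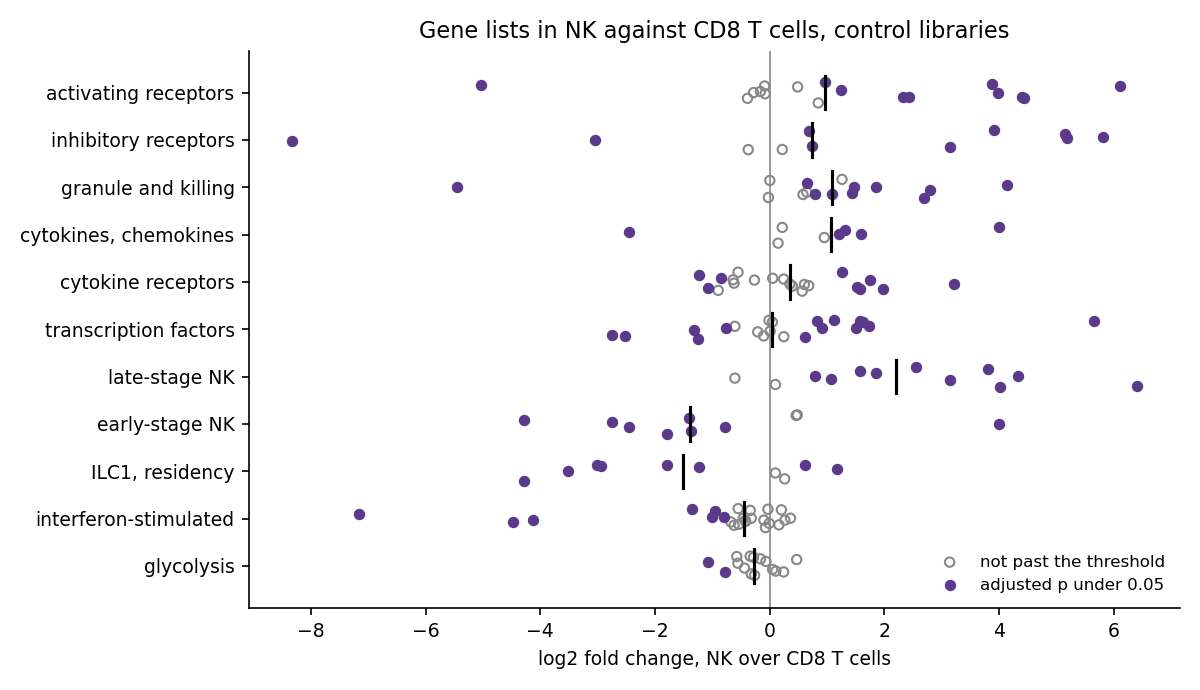
Points are genes of 11 lists by their log2 fold change in NK over CD8 T cells of the 2 control libraries, filled where edgeR's adjusted p was under 0.05, with the list median as a black bar. Late-stage NK genes sit to the right with a median of 2.21, and early-stage genes and ILC1 or residency genes to the left with medians of −1.40 and −1.52.

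Signalling receptors and adaptors were among the clearest NK genes. Of 17 activating receptors and adaptors tested, 9 were higher in NK cells and 1, Slamf6, was lower, with a list median of 0.96 on the log2 scale against −0.02 over all genes tested. Tyrobp stood at 3274 and 3667 CPM in the young and old control NK cells and at 147 and 120 CPM in the CD8 T cells, a log2 difference of 4.43 (edgeR adjusted p = 4.53e-20). Fcer1g stood at 2675 and 3179 CPM against 126 and 105 (log2 4.39, edgeR adjusted p = 6.44e-20). Fcer1g is not particular to NK cells and was found in 99.3% of macrophages of the control libraries. Klrb1a, a lectin-like receptor gene beside Klrb1c, had 28 and 39 UMIs in NK cells against 0 and 1 in CD8 T cells. Of 11 inhibitory receptor genes 7 were higher, among them Klra7 (log2 5.82), Klra3 (5.15) and Klrg1 (3.14), and 2 were lower, Lag3 and Pdcd1. Reads of Klra genes may be shared with the gate genes Klra8 and Klra4, so their differences may not be independent of the gate. Pdcd1, which encodes the checkpoint receptor PD-1 of activated T cells, had 0 UMIs in NK cells against 96 in 46 CD8 T cells, at least 19.3-fold lower on a floor of 3 counts for the group. DESeq2 also called 4 of the 9 activating and 5 of the 7 inhibitory genes that were higher, and neither Pdcd1 nor Lag3.

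Granule genes differed by granzyme. Of 15 tested, 9 were higher in NK cells and 1 lower (median 1.09). The NK rule reads Prf1, the gene of perforin, and the CD8 T gate asks for no granule gene. These differences may therefore not be independent of the gates. Gzma stood at 9455 and 11157 CPM in NK cells of the young and old control libraries against 614 and 369 CPM in CD8 T cells, a log2 difference of 4.13 (edgeR adjusted p = 5.44e-18). Gzmb was higher by 1.86 and Nkg7 by 1.43. Gzmk, the granzyme of memory-like CD8 T cells, went the other way, with 0 and 4 UMIs in NK cells against 8 and 309 in CD8 T cells (log2 −5.45, edgeR adjusted p = 5.69e-16). Serpinb9 (2.80) and Serpinb6b (2.69), inhibitors that shield a killer cell from its own granule proteases, were also higher. All 9 higher genes were also called in the fit over the 5 libraries with at least 10 cells of each kind, and 5 of the 9 by DESeq2.

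Maturation genes split by stage. Of 12 late-stage NK genes 10 were higher and 0 lower, with Cma1 at a log2 difference of 6.41, Itgam at 4.34 and S1pr5, the receptor NK cells use to leave tissue, at 4.01. Cma1 encodes mast cell chymase and was found in 93 and 213 UMIs of young and old control NK cells. Of the mast cell or basophil markers, Cpa3, Mcpt8 and Ms4a2 were at 0 in all NK cells, and Mcpt4 was found in 0.376% of them. Of 10 early-stage genes 7 were lower, including Il7r (−4.29), Tcf7 (−2.75) and Cd27 (−0.78), and 1, Xcl1, was higher at 3.99. Il7r, Tcf7 and Cd27 are also expressed by naive and memory T cells. DESeq2 called 5 of the 10 late-stage and 5 of the 7 early-stage genes.

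Among transcription factors 9 of 21 were higher and 5 lower, of which DESeq2 called 2 and 1. Irf8, needed for NK cell expansion in viral infection and better known from dendritic cells, stood at 2555 and 2029 CPM in NK cells against 21.0 and 42.5 in CD8 T cells (log2 5.66, edgeR adjusted p = 1.07e-22). Tbx21 was higher by 1.63 and Id2 by 1.73, and Tox was lower (−2.52). Of 8 cytokine and chemokine genes 4 were higher, with Xcl1, the lymphotactin that draws cross-presenting dendritic cells, at 540 and 340 CPM against 42.0 and 12.9. Ltb was lower. DESeq2 called 3 of the 4, and Ltb. Ifng did not pass the test (log2 0.22, edgeR adjusted p = 0.65). Among cytokine receptors and their signalling genes 6 of 21 were higher and 3 lower, with Il12rb2 at 3.22 and Il2rb at 1.74, and DESeq2 called 5 and 0 of these. Among homing and adhesion genes 8 of 18 were higher and 3 lower, of which DESeq2 called 2 and 1. Ccr7, which guides T cells to lymph nodes, had 1 UMI in NK cells and 322 in CD8 T cells, so its log2 difference of −7.93 rests on that 1 count.

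Interferon-stimulated genes were lower or not past the threshold. Of 24 tested, 0 were higher and 7 lower, among them Ifi27l2a (−4.47) and Ly6a (−4.12), and DESeq2 called 2 of the 7. Of 15 glycolysis genes 0 were higher and 2 lower, and of 12 proliferation genes 0 were higher and 4 lower. DESeq2 called 0 of these 6 genes. Of 10 T cell genes outside the gates 9 were lower, in a comparison whose gates divide cells by Cd3 genes, and Trbc1 did not pass (log2 −0.35, edgeR adjusted p = 0.39).

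The 10 genes with the largest difference on the NK side were Adamts14, Khdc1a, Trdv4, Aoah, Klri2, Phactr3, Khdc1c, Cma1, Klrb1a and Klra7. Over all edgeR calls, 6 higher genes were at 0 UMIs in CD8 T cells and 27 lower genes at 0 in NK cells. Such genes passed the count filter only through the population where they were high, so their place in the ranking is a description. Klra7 may also share reads with the gate genes Klra8 and Klra4. Adamts14, a secreted procollagen protease, had 22 and 59 UMIs over 69 NK cells of the young and old control libraries and 0 in 293 CD8 T cells, at least 44.8-fold higher. Khdc1a (20 and 27 UMIs) and Khdc1c (13 and 15) were also at 0 in CD8 T cells, at least 26.0-fold and 15.5-fold higher. Aoah, which removes fatty acids from bacterial lipopolysaccharide, had 13 and 20 UMIs against 0. Trdv4, a variable segment of the T cell receptor delta locus that overlaps other segments there, had 9 and 22 against 0, at least 17.1-fold higher. DESeq2 called 4 of these 10, namely Klri2, Cma1, Klrb1a and Klra7, and not Adamts14.

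On the T cell side the 10 were S100a8, Cd6, Trbv13-1, Bcl11b, Trbv16, Cd5, Ifitm1, Trbv12-2, Trbv12-1 and Pdcd1, all at 0 UMIs in control NK cells. Cd6, Cd5 and Bcl11b, surface and nuclear proteins of T cells, had 128, 117 and 121 UMIs in CD8 T cells. S100a8, a neutrophil alarmin, had 99.4% of its 1441 UMIs in 2 barcodes of the CD8 gate, and Ifitm1 was found in 6 cells, so both rest on few barcodes. DESeq2 called Cd6 and Bcl11b of these 10.

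Old and young NK cells were compared in the control libraries alone, the pair with at least 20 NK cells each. With 1 library per age no test was possible, and a gene was called when its log2 ratio of CPM, old over young, was at least 1 in size with at least 30 UMIs in both libraries together. Of 3184 genes outside the gates, 110 were higher in old (3.45%) and 96 lower (3.02%), 6.47% in either direction, and the median over all genes measured was 0.04. Outside the rule, the genes of NK identity and killing stayed within the fold limit. None of 14 activating receptors and adaptors, 8 inhibitory receptors, 13 granule genes, 19 transcription factors and 12 late-stage genes was called, and the list medians lay between −0.01 and 0.24. Gzma stood at 9455 CPM in young and 11157 CPM in old control NK cells (log2 0.24, exact conditional Poisson 95% interval 0.17 to 0.30), Nkg7 at 3308 and 3808 (0.20, 0.09 to 0.32) and Gzmb at 1909 and 1543 (−0.31, −0.47 to −0.15). Fasl, the death ligand of killer cells, was not called (log2 0.53, 0.13 to 0.94). It had a UMI in 40 of 86 young and 97 of 135 old cells, and in 14.1% and 29.6% of cells thinned to 1000 UMIs.

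Of the cytokine genes, Ccl3, Ccl4 and Ifng were lower in old and the others were not called. Of 7 cytokine and chemokine genes measured 3 were called, all lower, and the list median was −0.67 in NK cells and 0.17 in CD8 T cells of the same libraries. Ccl4, a chemokine that draws monocytes and T cells, had 523 UMIs in young and 365 in old control NK cells, or 1789 and 725 CPM (log2 −1.30, −1.50 to −1.11), and was found in 62.8% and 44.4% of cells. Ccl3 (chr11:83647844-83649355), which lies beside Ccl4 (chr11:83662584-83664683, GRCm38), had 82 and 43 UMIs (−1.72, −2.28 to −1.17). Ifng, the gene of interferon gamma, had 84 and 57 UMIs (−1.34, −1.86 to −0.84). Without the cell with most UMIs of the gene in each library these ratios were −1.05 for Ccl4, −1.55 for Ccl3 and −1.15 for Ifng. Without the cells with at least 2 ILC1 markers Ifng was at −0.88 and no longer called, while Ccl3 and Ccl4 were past the limit under every alternative that gave a value. In CD8 T cells the ratio was −0.32 for Ccl4, −1.44 for Ccl3 and 0.79 for Ifng. Xcl1 was not called (−0.67, −0.99 to −0.35), and neither was Ccl5, the most abundant of them (0.24, 0.20 to 0.28).

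A few other members of the lists passed the fold. Ccr2, the receptor for monocyte chemokines, was lower (38 and 32 UMIs, log2 −1.03, −1.76 to −0.32) and lost its call at −0.99 without the cells with a UMI of Trac, Cd4, Cd8a or Cd8b1. In the same comparison Atf3, a stress-induced factor, was lower (68 and 23, log2 −2.35, −3.10 to −1.65). Socs2 had 2 UMIs in young and 36 in old, in 13 cells (log2 3.39, 1.43 to 6.49), and Socs3 had 20 and 88 (1.35, 0.64 to 2.13). Both encode suppressors of cytokine signalling. Ly6e, an interferon-stimulated gene, was the called member of its list of 15, with 103 and 367 UMIs (1.05, 0.73 to 1.38), and the list median was 0.42 in NK cells and 0.23 in CD8 T cells. Anxa1, an anti-inflammatory phospholipid-binding protein, had 27 and 152 UMIs (1.71, 1.11 to 2.36), in 18 of 86 and 72 of 135 cells. It stands in no list and was picked after its values were seen. Of the 7 genes of the rule, Ncr1 was higher by 1.03 (0.99 with heat shock genes left out of the total) and Eomes lower with −0.82, both as a description since the rule read them.

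**Figure D4:**
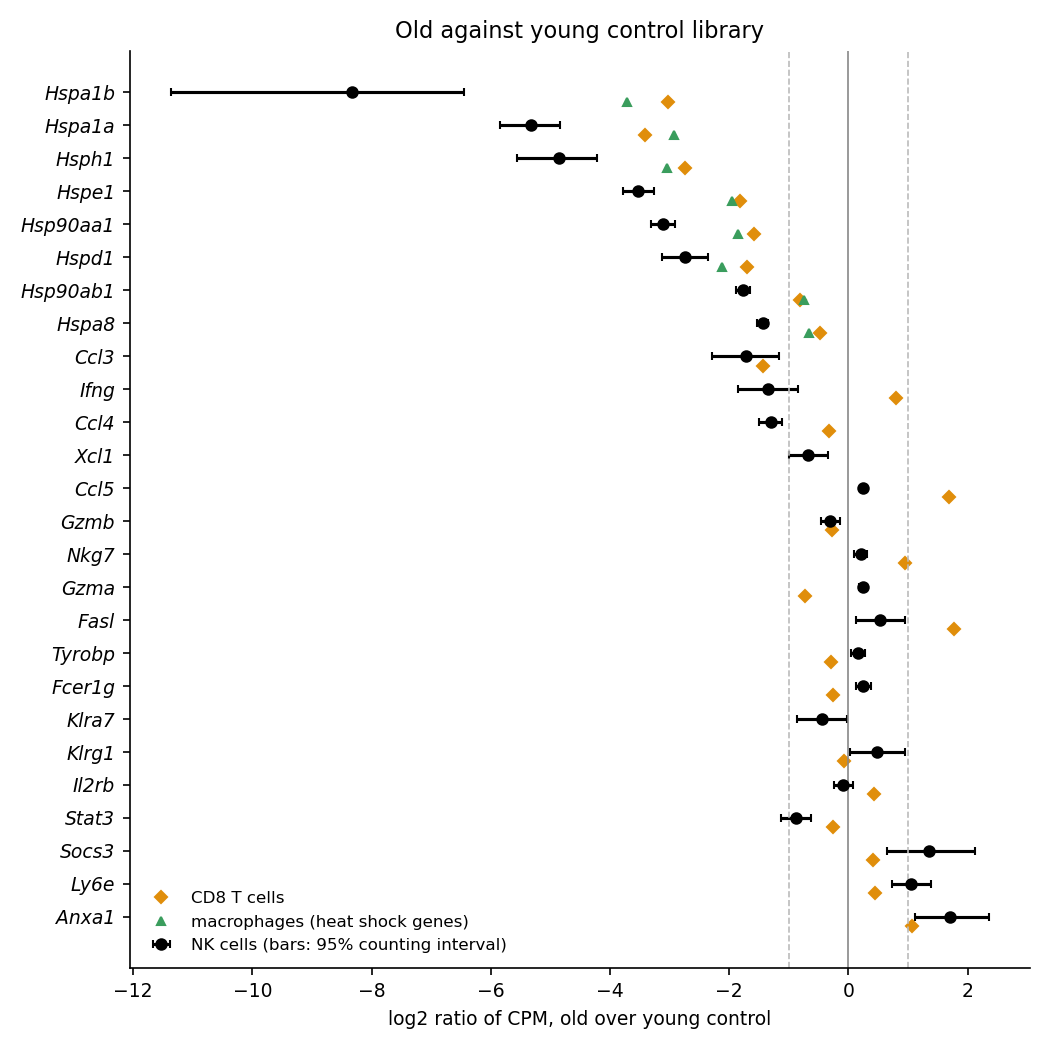
Black points show the log2 ratio of CPM, old over young, in NK cells of the control libraries with exact conditional Poisson 95% intervals, orange diamonds the same ratio in CD8 T cells, and green triangles in macrophages for the 8 heat shock genes. Dashed lines mark the fold limit, and the heat shock genes at the top lie left of it in NK cells, from −8.32 for Hspa1b to −1.44 for Hspa8, while the granule and receptor genes lie between the dashed lines.

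The largest differences toward lower levels in old lay in heat shock genes, whose protein products refold or escort damaged proteins. They were high in NK cells of the young control library and low in the old one. The 10 genes with the lowest ratio were Hspa1b, Hspa1a, Hspb1, Hsph1, Penk, Hspa4l, Hspe1, Hsp90aa1, Serpinb1a and Zfand2a. Hspa1b, an inducible HSP70, had 371 UMIs over 34 young cells and 2 UMIs in old (log2 −8.32, −11.37 to −6.46). Its near-copy Hspa1a had 811 and 35 UMIs (−5.32). In old 24 of these 35 came from 1 cell, and without the top cell of each library the ratio was −6.80. Reads of this pair may be shared, so their separate ratios are uncertain. Hsph1 (HSP110) had 351 and 21 UMIs (−4.85), Hspe1 (HSP10 of mitochondria) 947 and 142 (−3.52) and Hsp90aa1 (the inducible HSP90) 1243 and 249 (−3.10). Hspb1 had 58 UMIs in 3 young cells and 0 in old. Penk, the gene of proenkephalin, had all of its 38 UMIs in 1 young cell, and Serpinb1a had 26 of 31 in 1 cell. Of 20 heat shock genes in a list drawn up after the values were seen, 18 were lower in old, with a median of −1.84 in NK cells and −1.09 in CD8 T cells.

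The heat shock signal varied from cell to cell and was not limited to NK cells. A summed share was taken over 9 members of the list drawn up after the values were seen. It describes the same difference between the control libraries again and was not tested. The 9 genes chosen for a summed share (Hspa1a, Hspa1b, Hspb1, Hsph1, Hspe1, Hsp90aa1, Hspd1, Dnaja1 and Dnajb1) made up a median of 0.805% of a cell's UMIs in the 86 young control NK cells, from 0.0754% to 10.5%. In the 135 old control NK cells the median was 0.194% and the highest 0.819%, and 43 of the 86 young cells lay above that highest old cell. The medians in the HU and reload libraries were 0.333% (young HU), 0.115% (old HU), 0.226% (young reload) and 0.143% (old reload). Summed over cells, the same 9 genes held 1.79% of NK UMIs in the young control library and 0.214% in the old one, against 0.854% and 0.276% in CD8 T cells, 0.727% and 0.241% in B cells and 1.17% and 0.240% in macrophages. In each of these populations the young control library stood above the old one. The young HU library held 1.23% in NK cells (3 cells), 1.11% in B cells (7), 0.275% in CD8 T cells (5) and 0.314% in macrophages. In the old HU library these shares were 0.168%, 0.171%, 0.204% and 0.154%. Of the 3 young HU NK cells, 1 lay above the highest old control cell.

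**Figure D5:**
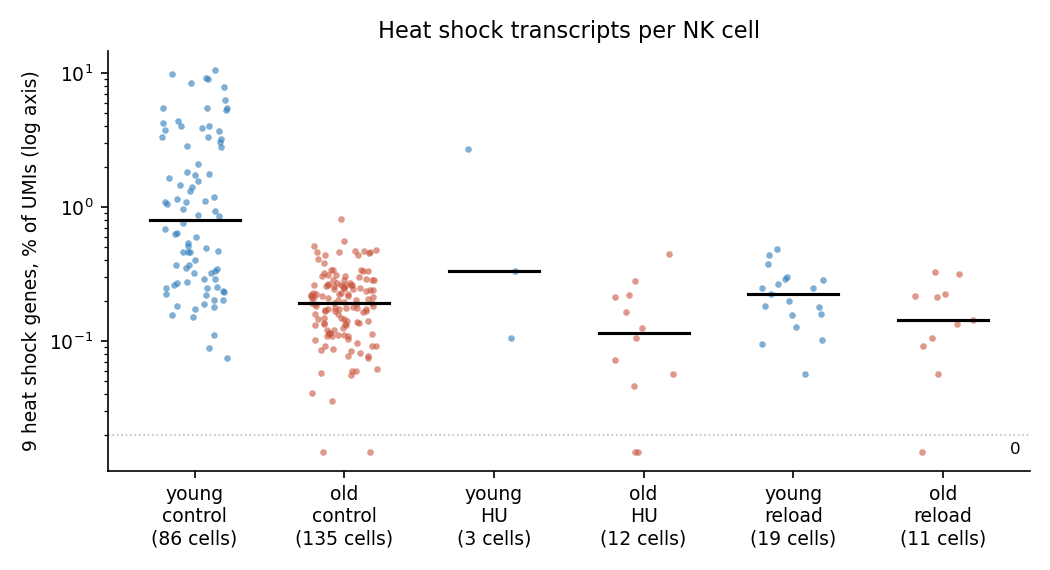
Each point is an NK cell, placed by library and by the percent of its UMIs from 9 heat shock genes on a log axis, with the median as a black line and cells at 0 below the dotted line. The young control cells spread from 0.0754% to 10.5%, and no old control cell lies above 0.819%.

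The promoters of the heat shock genes are shown because the genes that led this comparison are known targets of heat shock factors, which bind runs of inverted GAA units. The stretch before the RefSeq start (GRCm38.p6, 5′ to 3′ in the gene's direction) is given for 4 genes, ended before any annotated transcript of GENCODE. These 4 are examples, and Hsph1 and Hspa4l, whose ratios were lower than that of Hspe1, are not shown. All 4 hold a match, so they do not show how common a match is. Capitals mark matches to GAANNTTC or TTCNNGAA, the different orders in which a pair of inverted units can stand. Each pattern reads the same on both strands, so a match to either counts for both strands.
Hspa1b, chr17:34959239-34959488, minus strand: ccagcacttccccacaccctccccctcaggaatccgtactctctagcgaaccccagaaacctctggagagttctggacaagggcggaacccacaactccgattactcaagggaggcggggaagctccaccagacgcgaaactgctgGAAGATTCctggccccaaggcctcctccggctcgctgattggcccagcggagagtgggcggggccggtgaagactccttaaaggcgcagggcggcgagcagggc
Hspa1a, chr17:34972157-34972406, minus strand: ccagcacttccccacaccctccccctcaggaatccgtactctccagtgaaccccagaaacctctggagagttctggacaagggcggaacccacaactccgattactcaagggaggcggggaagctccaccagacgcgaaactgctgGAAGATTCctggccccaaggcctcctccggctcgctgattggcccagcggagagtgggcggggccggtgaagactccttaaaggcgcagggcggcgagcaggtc
Hspb1, chr5:135887669-135887918, plus strand: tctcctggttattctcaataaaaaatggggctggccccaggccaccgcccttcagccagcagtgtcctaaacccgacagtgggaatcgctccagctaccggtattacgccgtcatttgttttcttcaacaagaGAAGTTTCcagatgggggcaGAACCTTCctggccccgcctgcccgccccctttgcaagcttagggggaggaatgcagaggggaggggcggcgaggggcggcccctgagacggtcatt
Hspe1, chr1:55087898-55088131, plus strand: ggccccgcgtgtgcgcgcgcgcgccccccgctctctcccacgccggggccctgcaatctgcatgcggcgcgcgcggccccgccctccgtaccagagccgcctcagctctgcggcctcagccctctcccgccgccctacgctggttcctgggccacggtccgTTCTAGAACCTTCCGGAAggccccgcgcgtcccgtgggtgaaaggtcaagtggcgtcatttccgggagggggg

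The windows of Hspa1a and Hspa1b differed at 3 of 250 bases and held the same match 104 bases before the start. Hspb1 held 2 matches and Hspe1 an overlapping run of 3. In windows of 250 bases the 8-letter pair was found in 14.5% of all 27025 promoters, in 12.9% of the 2559 promoters of genes measured in control NK cells, in 18 of 78 (23.1%) of genes lower in old and in 9 of 17 (52.9%) heat shock genes. These last sets overlap, since 18 of the 20 heat shock genes were themselves lower in old. The share among the other genes lower in old was not computed. A longer run of 3 alternating units with the same spacing was in 0.514% of all promoters and in 2 of the 17. A T-box core, AGGTGT or ACACCT, was searched in the genes higher in NK than in CD8 T cells, since Eomes and T-bet are T-box factors. It was found in 21 of 263 promoters (7.98%), against 9.98% of the genes tested and 13.6% of all promoters. A match of letters is not a binding site, and no match says nothing about the factor.

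The genes with the largest ratio in old were H2-Eb1, H2-Aa, Cd74, H2-Ab1, Pclaf, Lyz2, Ckb, Socs2, H2-DMb1 and Cst3. Most of them present peptides on MHC class II or belong to myeloid cells. H2-Eb1 had 1 UMI in young and 299 in old, H2-Aa 4 and 326, and Cd74 (the invariant chain) 16 and 1170. In the old control library 2 of 135 NK cells held 1972 of the 2034 UMIs of H2-Aa, H2-Ab1, H2-Eb1 and Cd74 together (97.0%). Their median depth was 11543 UMIs against 3349 in the others, and 1 of the 2 was marked as a doublet. No young control NK cell had at least 2 of H2-Aa, H2-Ab1 and H2-Eb1. Without these 2 cells H2-Aa was at 2 UMIs in old, the ratio of Cd74 was 0.84 and that of Cst3 was −0.03. Pclaf, a proliferation gene, had 28 of its 35 UMIs in old in 1 cell, and Ckb 31 of 39. Without the 2 cells 94 of 3107 genes were higher (3.03%) and 91 lower (2.93%). Socs2 (log2 3.45) and Anxa1 (1.67) were still called, Hspa1b stood at −8.25 and Hsph1 at −4.78, and Hspa1a moved to −8.06 with 5 UMIs in old.

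No comparison of HU or reload NK cells by gene was made, since their libraries held 3, 12, 19 and 11 NK cells. The values that could be read were of abundant genes. Nkg7 had a UMI in all 3 young HU cells, in 11 of the 12 old HU cells, in 18 of the 19 young reload cells and in all 11 old reload cells. Gzma was found in 0, 11, 17 and 11 of these cells in the same order. Ccl4 was found in 1, 2, 8 and 5 of them, with intervals that overlapped those of both control libraries except old HU (16.7%, 2.09 to 48.4) against young control (62.8%, 51.7 to 73.0). A comparison with CD4 T cells was not run either, as the young control library held 19 of them.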

How the data were processed

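Processed single-cell data of 6 libraries were used, each with 1 deposited matrix of raw UMI counts per gene and barcode. Per the labels and the study's methods, the authors made these counts with Cell Ranger 3.1.0 on mm10 (10x Genomics 3′ chemistry); Seurat served their later analysis and no file of it was used. The deposited barcodes had at least 500 UMIs. The members and gene lists of the present work were chosen with earlier results of these data known.

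Barcodes were kept with at least 200 genes and at most 10% mitochondrial UMIs. Counts were summed over NK cells of a library and divided by their total (CPM). Shares have exact Clopper-Pearson 95% intervals. Ratios of old to young have exact conditional Poisson intervals, with a floor of 3 counts for a group with none. NK and CD8 T sums were tested with edgeR 4.0.16 (R 4.3.3, TMM, filterByExpr, quasi-likelihood test, library as block, Benjamini-Hochberg), leaving out genes of either gate from all counts. DESeq2 1.42.0, other limits, doublet removal (scrublet through scanpy 1.11.5) and thinning to 1000 UMIs were alternatives. Counts were simulated with the same dispersion for every gene and no library effect. In them the edgeR test recovered 92.3% of 4-fold and 28.2% of 2-fold changes and called 5 of 3890 unchanged genes. In old and young sums simulated as Poisson counts alone, 2.24% of unchanged genes passed the fold limit. Neither simulation was fitted to the spread of these data, so real error rates may be higher. Genes were named by rule: the genes of the gate, in every list the 4 members with most UMIs, the called members with the largest change each way and others needed for its range, and the 10 genes with the largest change each way in both comparisons, leaving out mitochondrial, ribosomal protein and predicted genes. Promoter windows are RefSeq's, gene positions GENCODE's on GRCm38.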

Additional observations from a re-analysis of the deposited data

How the results depend on the processing

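The NK share moved outside its counting interval in the control libraries alone: 4.30% in young control with at least 3 of the 7 genes, and 3.86% in young and 3.49% in old control with the rule applied after thinning to 1000 UMIs. Other mitochondrial and gene limits, doublet removal and exclusion of T cell receptor transcripts kept every share inside. The HU and reload intervals are wide, so staying inside says little there. With at least 3 of the 7 genes the young HU share went from 0.198% to 0.0659%. After thinning the old reload share went from 0.454% to 0.261%. In old against young NK cells, genes higher and lower numbered 32 and 40 after thinning (1002 genes), 569 and 401 with at least 10 UMIs, and 20 and 25 with at least 100 UMIs. Without the cells with MHC class II the log2 ratio of Cst3 turned to -0.027. Ifng (-0.88 without cells with ILC1 markers) and Ccr2 (-0.99 without cells with T cell transcripts) fell under the fold limit. H2-Aa, H2-Ab1 and Ckb also turned without the cells with MHC class II but fell under 30 UMIs. Of the values of single genes under the alternatives, 460 stayed inside their counting interval, 34 moved further and 1 (Cst3) reversed. The 460 include 42 values with at least 10 UMIs and 31 with at least 100 UMIs, limits that cannot change a ratio. TMM factors and leaving heat shock genes out of the total shift every gene by the same small amount. The tally is therefore no measure of stability. Leaving out, for each gene, its top cell in each library gave 115 higher and 75 lower of 2859.

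In NK against CD8 T cells, genes higher and lower numbered 50 and 120 by DESeq2, 168 and 223 with no replicate block, 60 and 114 after thinning (1521 genes), and 225 and 240 over the 5 libraries with at least 10 cells of each kind, with the replicate block (1724 genes). Leaving out 1 of these 5 in turn gave 116 to 234 higher and 149 to 301 lower, lowest without young control for higher genes and without old control for lower genes. Of the main calls, 163 and 213 were also called over the 5 libraries. With both control libraries alone, leaving out 1 leaves no residual degrees of freedom and was not run. The alternatives with 5 libraries, without cells with MHC class II or ILC1 markers, without top cells and without heat shock genes in the total were chosen after seeing the data. No paired analysis was possible for old against young because each age has 1 library. The low number of NK cells limits the HU and reload libraries most: a gene at 0 in 3 cells may be present. Median NK depth was lower in old HU (2278 UMIs) and old reload (1869) than in old control (3376). In young HU (3304) and young reload (3780) it was not lower than in young control (3223).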
